A study of Mus musculus with 16 samples.

Results

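Fatty acids reach the inside of a liver cell through proteins that take them up, bind them or bring in the lipoproteins that carry them, and 9 mouse genes for such proteins were followed here: Cd36, Slc27a1, Slc27a2, Slc27a4, Fabp1, Fabp2, Fabp4, Fabp5 and Vldlr. They were taken by exact match of the gene symbol, each stood on 1 row, and they are 9 of 55487 rows in the tables. All 9 passed the filter on low counts that left 13905 genes for testing. Whole livers of mice fed a high-fat diet gave the 16 sequenced libraries, all labelled C57/Bl6J with the genotype J1 J2 lf/lf, which is shared by the controls. The 6 Flpo libraries are named LJ1J27b and the 5 Cre libraries LJ1J27a, for spliceoforms of the JNK kinases in hepatocytes, and the 5 GFP libraries are named LJ1J2control. Flpo and Cre are DNA recombinases and GFP is a fluorescent protein that recombines nothing. The age of the mice, the hour of harvest and the way the recombinases were delivered were not found in the labels. Nor do the labels state that every library is another mouse, and the p-values below reflect only how these libraries spread.

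Long-chain fatty acids can cross the plasma membrane with the help of CD36, a scavenger receptor, and of the SLC27 proteins, which pair uptake with activation to acyl-CoA. Inside the cell the small FABP proteins hold fatty acids in solution and carry them to enzymes, membranes and nuclear receptors. Lipoprotein receptors such as VLDLR add a route for whole triglyceride-rich particles, and in liver several of these genes are known targets of the nuclear receptors PPARA and PPARG.

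Each library held between 27929393 and 36043322 estimated counts. Mapk8 and Mapk9, which encode JNK1 and JNK2, were measured for the whole gene, so the tables do not show which spliceoform a library holds. Mapk8 ranged from 12.5 to 14.6 CPM (counts scaled to library size with TMM factors) in Flpo, from 8.32 to 15.1 in Cre and from 8.12 to 15.1 in GFP. Mapk9 ranged from 40.5 to 51.2 CPM in Flpo, from 28.3 to 41.7 in Cre and from 23.3 to 61.7 in GFP. The summed level of 11 hepatocyte markers was 68773 to 82921 TPM (transcript abundance per unit of gene length) in Flpo, 66047 to 94377 in Cre and 72615 to 81915 in GFP, and all 11 passed the count filter. Of these 11, 2 were called higher in Cre than in GFP (median log2 change 0.32) and 3 lower in Flpo than in Cre (-0.31). Of all genes tested, 3.97% and 6.26% were called so. Because the title numbers are grouped by condition, a batch and the condition cannot be told apart. In whole liver RNA, fewer cells of a type and less RNA per cell cannot be told apart either.

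The 250 bases before and 50 bases after the annotated start were read from RefSeq for GRCm38.p6, and 7 of the 9 genes matched, with 10 windows. Shown first are Cd36 and Vldlr, which differed most between the groups, and then Fabp1, the most abundant of the 9 genes. Capitals mark AGGTCA or its reverse complement TGACCT, the half-site that nuclear receptors such as PPARA and PPARG bind. The Cd36 window is chr5:17835847-17836146 on the minus strand, inside the longest annotated extent of the gene, the Vldlr window is chr19:27216234-27216533 on the plus strand and the Fabp1 window is chr6:71199629-71199928 on the plus strand.
Cd36: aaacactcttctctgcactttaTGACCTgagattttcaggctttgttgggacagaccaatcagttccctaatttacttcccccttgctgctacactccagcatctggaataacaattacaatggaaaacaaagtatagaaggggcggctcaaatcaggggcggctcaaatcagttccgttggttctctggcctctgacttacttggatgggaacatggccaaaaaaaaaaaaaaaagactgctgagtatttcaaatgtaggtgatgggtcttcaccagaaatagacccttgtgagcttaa
Vldlr: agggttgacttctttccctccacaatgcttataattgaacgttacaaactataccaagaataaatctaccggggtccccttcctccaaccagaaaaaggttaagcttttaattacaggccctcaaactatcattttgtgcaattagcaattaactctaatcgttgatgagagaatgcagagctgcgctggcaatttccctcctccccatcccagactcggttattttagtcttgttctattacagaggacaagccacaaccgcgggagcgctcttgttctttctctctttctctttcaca
Fabp1: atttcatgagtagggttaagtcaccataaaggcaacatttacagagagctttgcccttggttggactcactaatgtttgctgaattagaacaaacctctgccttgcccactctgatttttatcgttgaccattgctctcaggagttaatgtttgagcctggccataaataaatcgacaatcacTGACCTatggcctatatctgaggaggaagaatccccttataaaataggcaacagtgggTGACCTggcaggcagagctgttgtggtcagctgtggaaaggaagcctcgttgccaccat
The half-site, counted on both strands, was found once in the Cd36 window, not in this Vldlr window and 2 times in that of Fabp1. It stood in a window of 3 of the 7 genes, the remaining one being Slc27a2, and in 16.2% of 32544 promoter windows of this length. Here and below the share counts single windows, while a gene with several windows counted when any of them matched, so the 2 are not alike. The full repeat AGGTCANAGGTCA, in which 2 half-sites are 1 base apart, was in no window of the 7 genes and in 0.0399% of all windows. The STAT5 core TTCNNNGAA was in none of the 7 genes' windows and in 8.33% of all, the E-box CACGTG was in 1 gene, Slc27a1, and in 7.17% of all, and TTATGNAA was in none and in 3.39% of all. Such a match describes letters in a window and is not a measured binding site.

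Levels across genes were set side by side in TPM, which divides by gene length. Fabp1, which encodes the liver fatty acid binding protein, was the most abundant gene in all 3 groups, at 11198 ± 1642 TPM in Flpo (SD, n = 6), 12688 ± 2582 in Cre (n = 5) and 13065 ± 2353 in GFP (n = 5). Of the summed TPM of the 4 Fabp genes followed here it made up 98.4% in Flpo, 98.3% in Cre and 98.2% in GFP. Slc27a2, a very-long-chain acyl-CoA synthetase and transporter also known as FATP2, came next in all 3 groups, at 1022 ± 114 TPM in Flpo, 1144 ± 219 in Cre and 1046 ± 86.7 in GFP. Among the 3 SLC27 genes followed here it held 97.0% of the TPM in Flpo, 98.2% in Cre and 97.5% in GFP. Another hepatic member, Slc27a5, which was picked after its values were seen, stood at 487 TPM on average in Flpo, 386 in Cre and 471 in GFP, between Slc27a2 and Fabp2.

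Below these genes the order differed between the groups. In Flpo, Fabp2 at 162 ± 23.5 TPM and Cd36 at 115 ± 18.1 TPM came next with ranges that overlapped, and Slc27a1 at 17.9 ± 4.10, Slc27a4 at 13.7 ± 1.57 and Fabp4 at 13.0 ± 6.07 overlapped each other in turn, above Fabp5 at 3.85 ± 1.14 and Vldlr at 2.16 ± 0.773, which also overlapped. In GFP, Fabp2 at 225 ± 14.9 TPM lay clear of Cd36 at 108 ± 29.4, and Slc27a4 at 14.7 ± 1.78, Slc27a1 at 12.3 ± 1.83, Fabp4 at 9.68 ± 2.07, Fabp5 at 6.57 ± 3.005 and Vldlr at 2.21 ± 0.572 followed, each overlapping its neighbour. In Cre, Fabp2 at 189 ± 48.8 TPM was followed by Fabp5 at 16.3 ± 7.75, Cd36 at 14.9 ± 9.86, Slc27a4 at 12.8 ± 5.23, Fabp4 at 9.30 ± 3.92 and Slc27a1 at 8.48 ± 3.50, each overlapping the next, and Vldlr at 0.296 ± 0.241 lay below them all. Fabp5 thus held rank 8 in Flpo, rank 4 in Cre and rank 8 in GFP, and Cd36 held rank 4 in Flpo, rank 5 in Cre and rank 4 in GFP.

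**Figure D1:**
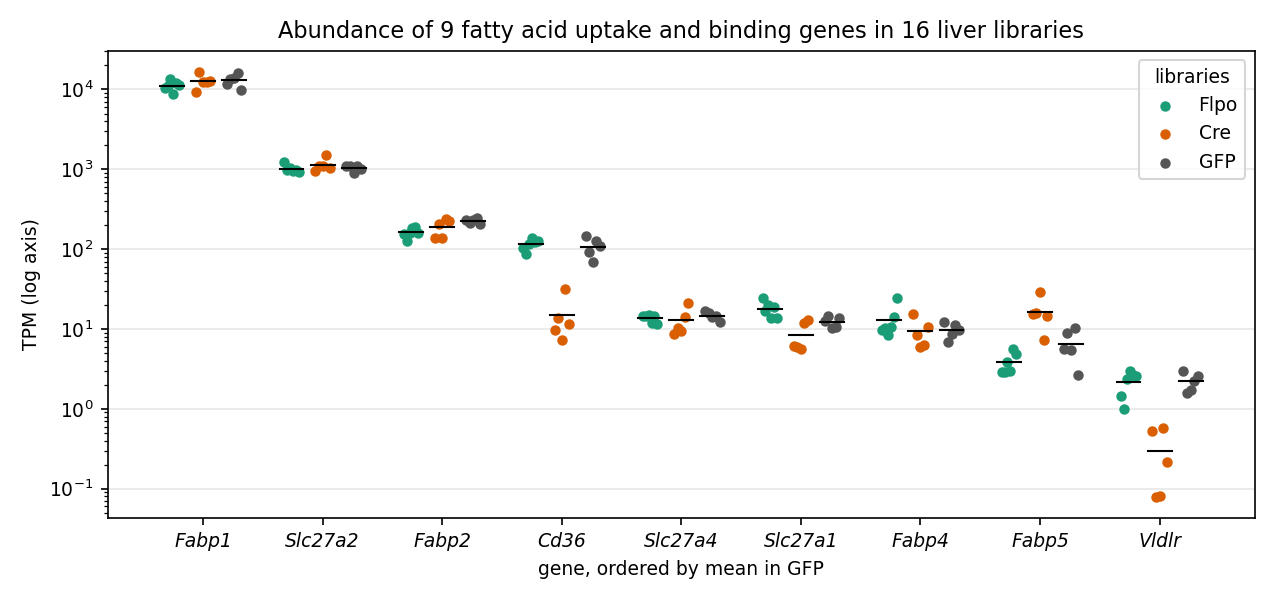
TPM of the 9 genes in each library on a log axis, with 1 point per library for the 6 Flpo, 5 Cre and 5 GFP libraries. Fabp1 and Slc27a2 lie far above the others in all groups, and the Cre points of Cd36 and Vldlr lie below every Flpo and GFP point.

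Between groups, each gene was compared in CPM with edgeR's quasi-likelihood test over all 13905 genes, and a call needed an adjusted p (Benjamini-Hochberg) under 0.05. Against GFP, Cre livers had lower RNA of Cd36 and of Vldlr and higher RNA of Fabp5, so 3 of the 9 genes were called, against 9.55% of all genes tested in this comparison (3.97% higher and 5.58% lower). Against Cre, Flpo livers had higher Cd36, Vldlr and Slc27a1 and lower Fabp5, Slc27a2 and Fabp2, so 6 of 9 were called, against 13.7% of all genes (7.45% higher and 6.26% lower). Between Flpo and GFP none of the 9 was called, where 0.0288% of all genes were. In that comparison 3 of the 9 had an unadjusted p under 0.05, as had 9.73% of all genes, DESeq2 called 1 of the 9 and 0.518% of all genes, and limma-voom called none of the 9 and 0% of all. The ranges of CPM did not overlap for 3 of 9 genes in Cre against GFP (8.2% of all genes), for 1 of 9 in Flpo against GFP (1.55%) and for 3 of 9 in Flpo against Cre (7.84%). The comparisons share libraries in pairs, so they are not independent of each other.

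**Figure D2:**
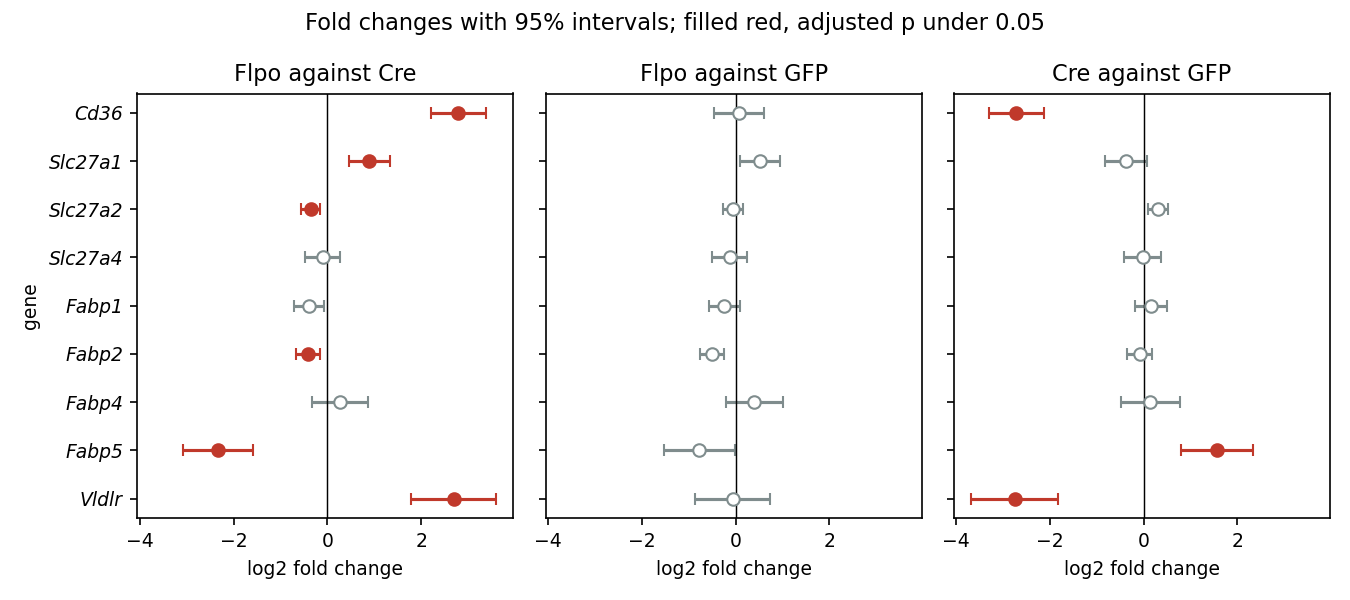
Log2 fold change of each gene with its 95% confidence interval from the edgeR fit, in 3 panels for Flpo against Cre, Flpo against GFP and Cre against GFP. Filled red points mark genes called at an adjusted p under 0.05, which are 6 in Flpo against Cre, none in Flpo against GFP and 3 in Cre against GFP.

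Cd36 spans 17781690-17888801 of chromosome 5 in GRCm38 as annotated in GENCODE vM21 (minus strand). Its level was 189 CPM in the lowest Flpo library, 247 at the median and 271 in the highest, against 23.2, 33.1, 19.3, 65.9 and 28.2 CPM in Cre libraries 1 to 5 and 286, 190.3, 153, 249 and 239 CPM in GFP libraries 1 to 5. Every Cre library lay below every Flpo and GFP library, and the Flpo and GFP ranges overlapped. Cd36 was 6.58-fold lower in Cre than in GFP (log2 fold change -2.72, SE 0.279, adjusted p = 2e-05) and 6.94-fold higher in Flpo than in Cre (2.80, SE 0.274, adjusted p = 1.28e-05). Between Flpo and GFP the log2 difference was 0.08 (95% interval -0.45 to 0.61, adjusted p = 0.942). Set against Slc27a2 in the same library, Cd36 reached 11.4 ± 2.54% of its TPM in Flpo, 1.23 ± 0.534% in Cre and 10.2 ± 2.27% in GFP. Macrophages also express Cd36, and of 13 markers of Kupffer cells and other macrophages none was called in Cre against GFP and 1 was higher in Flpo than in Cre. Of 13 markers of stellate cells and fibroblasts, a list not planned for Cd36, 5 were called lower in Cre than in GFP (5.58% of all genes). In Flpo against Cre, 6 of these 13 were higher (7.45% of all genes). The summed TPM of the stellate list was 227 to 309 in Flpo, 118 to 235 in Cre and 211 to 279.9 in GFP. The part of either cell type in the values of Cd36 was not tested.

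Among the genes whose log2 CPM followed Cd36 most closely over the 16 libraries were Slc22a27 and Lgals1, with Pearson r of 0.973 and 0.971, and r of 0.781 and 0.59 once group means were removed. Slc22a27 encodes a solute carrier and Lgals1 encodes galectin-1. These libraries share their groups, so the r values describe likeness and were not tested.

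Of the SLC27 genes, Slc27a1 was higher and Slc27a2 lower in Flpo than in Cre, and Slc27a4 was called in no comparison. Slc27a1, also known as FATP1 and best known from muscle and fat, spans 71568882-71587302 of chromosome 8 (plus strand). It stood at 21.3 CPM in the lowest Flpo library, 29.7 at the median and 39.5 in the highest, against 11.8, 11.5, 12.0, 19.4 and 24.6 CPM in Cre and 20.03, 23.8, 18.2, 16.7 and 23.9 CPM in GFP. In Cre, 4 of the 5 libraries lay below the lowest Flpo library and the other lay within the Flpo range. Slc27a1 was 1.86-fold higher in Flpo than in Cre (log2 0.89, SE 0.209, adjusted p = 0.00836). The summed TPM of 6 markers of striated muscle was 0 to 0.268 in Flpo, 0 to 2.37 in Cre and 0 to 0.218 in GFP. None of the 6 passed the count filter, and 2 were at 0 throughout. In Cre against GFP the log2 difference of Slc27a1 was -0.38 (95% interval -0.83 to 0.08, adjusted p = 0.308), and in Flpo against GFP it was 0.52 (0.08 to 0.95, unadjusted p = 0.0219, adjusted p = 0.432 with edgeR).

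Slc27a2 spans 126552407-126588243 of chromosome 2 (plus strand), and an antisense gene, Gm26697, overlaps it. Whether the counting used strand was not given, so reads of a gene and its antisense partner cannot be told apart. It ranged from 1506 to 2057 CPM in Flpo with a median of 1700.1, against 1869, 2192, 2371, 2556 and 2035 CPM in Cre and 1782, 1866, 1657, 1796 and 1812 CPM in GFP. All 5 Cre libraries lay above all 5 GFP libraries, though the nearest were as close as 1869 and 1866 CPM, and the Flpo range overlapped both. Slc27a2 was lower in Flpo than in Cre (log2 -0.36, SE 0.0964, adjusted p = 0.0181), a call that was lost with library totals in place of TMM factors (-0.23, adjusted p = 0.13) and on log2(TPM + 1) with limma (-0.15, adjusted p = 0.366). In Cre against GFP it differed by 0.31 (95% interval 0.09 to 0.52, adjusted p = 0.0656), which passed with DESeq2 (adjusted p = 0.0188) and without Cre library 1 (adjusted p = 0.0304) or Flpo library 1 (0.0348), and in Flpo against GFP by -0.06 (-0.26 to 0.15, adjusted p = 0.882).

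Slc27a4, or FATP4, which serves fatty acid absorption in the intestine, spans 29802634-29817522 of chromosome 2 (plus strand). It stood at 37.1 CPM in the lowest Flpo library, 47.1 at the median and 50.9 in the highest, against 33.2, 39.1, 39.9, 46.9 and 81.8 CPM in Cre and 53.3, 52.5, 49.8, 45.8 and 43.1 CPM in GFP. The last Cre library stood apart above all others, and the other 4 Cre libraries overlapped the other groups. The log2 difference was -0.02 in Cre against GFP (95% interval -0.42 to 0.37, adjusted p = 0.96) and -0.10 in Flpo against Cre (-0.48 to 0.28, adjusted p = 0.769), and without that library these were -0.30 (adjusted p = 0.144) and 0.17 (adjusted p = 0.367). In Flpo against GFP it was -0.12 (-0.50 to 0.25, adjusted p = 0.855). As a ratio within each library, Slc27a1 TPM over Slc27a4 TPM was 1.30 ± 0.199 in Flpo, 0.665 ± 0.103 in Cre and 0.846 ± 0.164 in GFP.

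**Figure D3:**
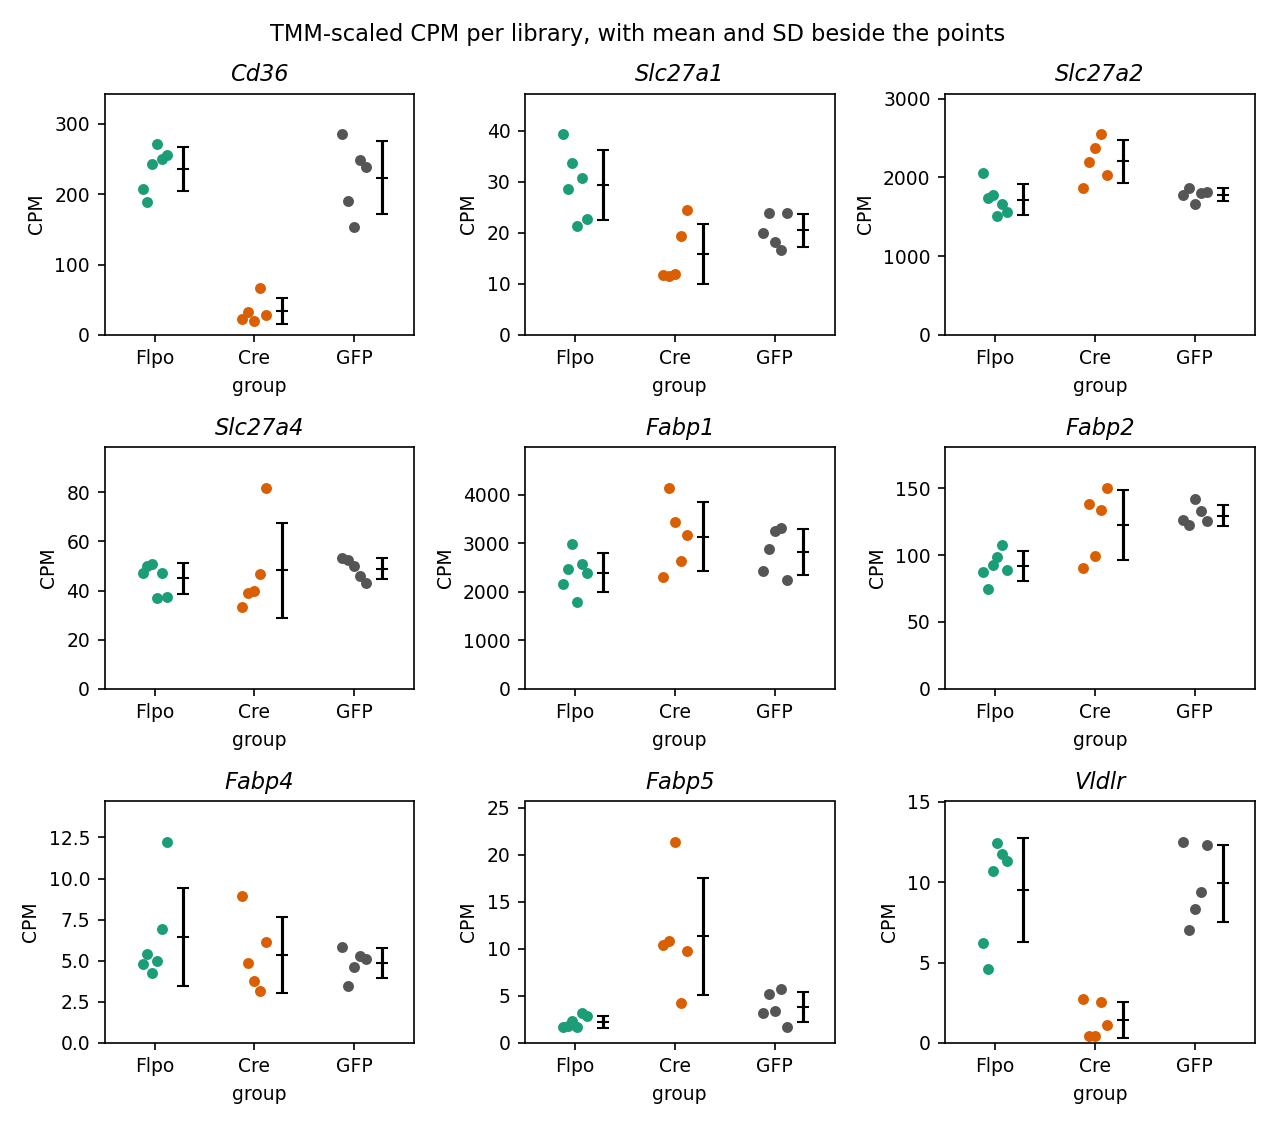
CPM of each of the 9 genes by library, in 9 panels with Flpo, Cre and GFP from left to right, and with the group mean and SD drawn beside the points. In Cre, Cd36 averages 33.9 and Vldlr 1.45 CPM, below both other groups, while Fabp5 averages 11.3 CPM, above both.

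Of the binding proteins, Fabp5 was called in both comparisons that involve Cre, Fabp2 in Flpo against Cre, and Fabp1 and Fabp4 in none. Fabp5, the epidermal fatty acid binding protein, which macrophages also express, spans 10012548-10016607 of chromosome 3 (plus strand). Its level was 1.64 CPM in the lowest Flpo library, 2.05 at the median and 3.20 in the highest, against 10.4, 10.8, 21.4, 4.21 and 9.77 CPM in Cre and 3.14, 5.22, 3.41, 5.67 and 1.65 CPM in GFP. All Cre libraries lay above all Flpo libraries, and 4 of 5 lay above all GFP libraries, with Cre library 4 inside the GFP range. Fabp5 was 2.96-fold higher in Cre than in GFP (log2 1.56, SE 0.368, adjusted p = 0.0128) and 5.05-fold lower in Flpo than in Cre (log2 -2.34, SE 0.357, adjusted p = 0.000405). Between Flpo and GFP the difference was -0.77 (95% interval -1.52 to -0.02, unadjusted p = 0.0445, adjusted p = 0.506).

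Macrophages were looked at through their markers, and their part in the Fabp5 values was not tested. The summed TPM of 13 markers of Kupffer cells and other macrophages ranged from 143 to 337 in Flpo, from 141 to 191 in Cre and from 161 to 266 in GFP, and none of the 13 was called in Cre against GFP and 1 was higher in Flpo than in Cre. For 11 markers of lipid-associated and recruited macrophages the sums were 106 to 170.3 TPM in Flpo, 69.2 to 106 in Cre and 96.1 to 138 in GFP. Of the 11, 2 were lower in Cre than in GFP (5.58% of all genes), while 2 were higher and 1 lower in Flpo than in Cre (7.45% and 6.26%). Fabp5 was most alike in pattern to Gstp1 (r = 0.894 over the 16 libraries, 0.643 without group means), Mpzl1 (0.885, 0.635) and 4833411C07Rik (0.883, 0.636), of which Gstp1 encodes a glutathione transferase.

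Fabp4, the fatty acid binding protein of adipocytes, which capillary endothelium also makes, spans 10204088-10208576 of chromosome 3 (minus strand). It was scarce, at 4.26 CPM in the lowest Flpo library, 5.21 at the median and 12.2 in the highest, against 8.94, 4.85, 3.77, 3.13 and 6.12 CPM in Cre and 5.83, 3.48, 4.59, 5.31 and 5.12 CPM in GFP. The groups overlapped throughout. The log2 difference was 0.14 in Cre against GFP (95% interval -0.49 to 0.77, adjusted p = 0.832), 0.40 in Flpo against GFP (-0.20 to 1.01, adjusted p = 0.683) and 0.26 in Flpo against Cre (-0.34 to 0.87, adjusted p = 0.6). In the highest Fabp4 library, Flpo 6, Fabp4 stood at 24.8 TPM. Of 5 other fat cell genes, Lep at 0.0948 TPM and Retn at 0.561 TPM were highest there among all libraries. Adipoq at 0.446, Plin1 at 0.253 and Adig at 0.486 TPM were not, with their highest values of 0.510 in Flpo 4, 0.392 in Cre 5 and 3.88 TPM in GFP 1. The part of fat tissue in Fabp4 was not tested. For 15 markers of liver endothelium the sums were 71.2 to 129 TPM in Flpo, 91.4 to 126 in Cre and 89.4 to 117 in GFP.

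Fabp1 spans 71199827-71205023 of chromosome 6 (plus strand). It ranged from 1781 to 2987 CPM in Flpo with a median of 2425, against 2306, 4146, 3441, 2630.1 and 3162 CPM in Cre and 2428, 2881, 3253, 3311 and 2254 CPM in GFP, and the groups overlapped. The log2 difference was 0.15 in Cre against GFP (95% interval -0.19 to 0.49, adjusted p = 0.618), -0.24 in Flpo against GFP (-0.57 to 0.09, adjusted p = 0.643) and -0.39 in Flpo against Cre (-0.72 to -0.07, adjusted p = 0.107). Without Cre library 1, the last of these passed (-0.49, adjusted p = 0.0442).

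Fabp2, the intestinal fatty acid binding protein, which is also transcribed in liver, spans 122895072-122899506 of chromosome 3 (plus strand), across from the antisense gene 4933405D12Rik. Its level was 74.3 CPM in the lowest Flpo library, 90.6 at the median and 107 in the highest, against 90.1, 138, 99.2, 134 and 150.4 CPM in Cre and 126, 122, 142, 133 and 125 CPM in GFP. Every Flpo library lay below every GFP library, and 2 of the 5 Cre libraries fell within the Flpo range. Fabp2 was lower in Flpo than in Cre (log2 -0.42, SE 0.122, adjusted p = 0.0293), a call lost with library totals (-0.28, adjusted p = 0.154), on log2(TPM + 1) (-0.19, adjusted p = 0.387) and without Cre library 2 (adjusted p = 0.0781), 4 (0.0541) or 5 (0.0809) or Flpo library 2 (0.0501). Flpo against GFP gave -0.50 (95% interval -0.76 to -0.25, unadjusted p = 0.000654, adjusted p = 0.229), which DESeq2 called (adjusted p = 0.0355). In Cre against GFP it was -0.08 (-0.35 to 0.19, adjusted p = 0.745). The summed TPM of 11 markers of gut and pancreas was 35.1 to 54.3 in Flpo, 38.0 to 52.9 in Cre and 41.4 to 51.7 in GFP. Only 1 of the 11 passed the count filter, and 3 were at 0 throughout.

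Vldlr, the receptor for very-low-density lipoprotein, spans 27216484-27254231 of chromosome 19 (plus strand). Its level was 4.60 CPM in the lowest Flpo library, 11 at the median and 12.4 in the highest, against 2.75, 0.431, 0.448, 2.53 and 1.099 CPM in Cre and 12.5, 7.03, 8.35, 9.42 and 12.3 CPM in GFP. Every Cre library lay below every Flpo and GFP library. The Cre values rest on 77, 12, 12, 84 and 28 estimated counts in libraries 1 to 5. Vldlr was 6.75-fold lower in Cre than in GFP (log2 -2.75, SE 0.442, adjusted p = 0.00104) and 6.46-fold higher in Flpo than in Cre (log2 2.69, SE 0.432, adjusted p = 0.000705), and Flpo against GFP gave -0.06 (95% interval -0.86 to 0.74, adjusted p = 0.972). On log2(TPM + 1), which shrinks differences of scarce genes, the first 2 of these were -1.31 (adjusted p = 0.000265) and 1.26 (adjusted p = 0.000162). The genes most alike to Vldlr were Tceal8 (r = 0.947, and 0.711 without group means), H2-Q1 (0.943, 0.686) and Gstt3 (0.932, 0.762), and its r with Cd36 was 0.919 (0.521 without group means).

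For Slc27a1 the most alike genes were Tbc1d4 (r = 0.878, and 0.795 without group means), Lpar1 (0.871, 0.723) and Pcx (0.86, 0.63), of which Tbc1d4 encodes a Rab regulator of glucose transporter traffic and Pcx pyruvate carboxylase. For Slc27a2 they were Amacr (0.91, 0.765), which encodes a racemase of branched-chain acyl-CoA, Slc1a4 (0.908, 0.834) and Zfand6 (0.904, 0.751). For Fabp2 they were Gm49012 (0.811, 0.661), Dmap1 (0.777, 0.465) and Chrna1os (0.763, 0.621), a looser likeness than for the other genes. Slc22a27, Gstp1, Gstt3 and H2-Q1 belong to families of genes that resemble each other to differing degrees, among which reads may have been split.

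Circadian clock genes were counted too, 6 that peak with Arntl and 10 that peak with Dbp and Per. In Cre against GFP, 1 of the 6 and 3 of the 10 were called lower and none higher (5.58% of all genes were lower). In Flpo against Cre, 1 of the 6 was higher and 3 lower, and 7 of the 10 were higher and 1 lower (7.45% and 6.26% of all genes). None was called in Flpo against GFP. A score of 16 clock genes, the mean of standardised log2 CPM of genes that peak with Arntl minus that of genes that peak with Dbp and Per, ranged from -1.31 to -0.155 in Flpo, from -0.372 to 1.70 in Cre and from -0.742 to 0.699 in GFP. The ranges of every pair of groups overlapped. In Cre, library 4 had the score of -0.372, and the other 4 stood at 1.235 or more. In library 4, Cd36 at 65.9 CPM and Vldlr at 2.53 CPM were below the lowest GFP libraries, at 153 and 7.03 CPM, and Fabp5 at 4.21 CPM lay inside the GFP range. With the score as a covariate in edgeR, Cd36 stayed called in Cre against GFP (log2 -2.46, adjusted p = 0.000171) and in Flpo against Cre (2.26, adjusted p = 0.00774), and Vldlr stayed called in Cre against GFP (-2.65, adjusted p = 0.013). Under that covariate the calls of Fabp5 in Cre against GFP (1.08, adjusted p = 0.264) and in Flpo against Cre (-1.55, adjusted p = 0.362) were lost, as were those of Vldlr (2.50, adjusted p = 0.13), Slc27a1 (0.64, adjusted p = 0.54), Slc27a2 (-0.55, adjusted p = 0.141) and Fabp2 (-0.58, adjusted p = 0.273) in Flpo against Cre. Of the Cre libraries, library 4 alone had a score inside the Flpo range, and it alone had one inside the GFP range. Clock and group therefore cannot be told apart in either comparison with Cre, and the part of the clock was not tested.

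**Figure D4:**
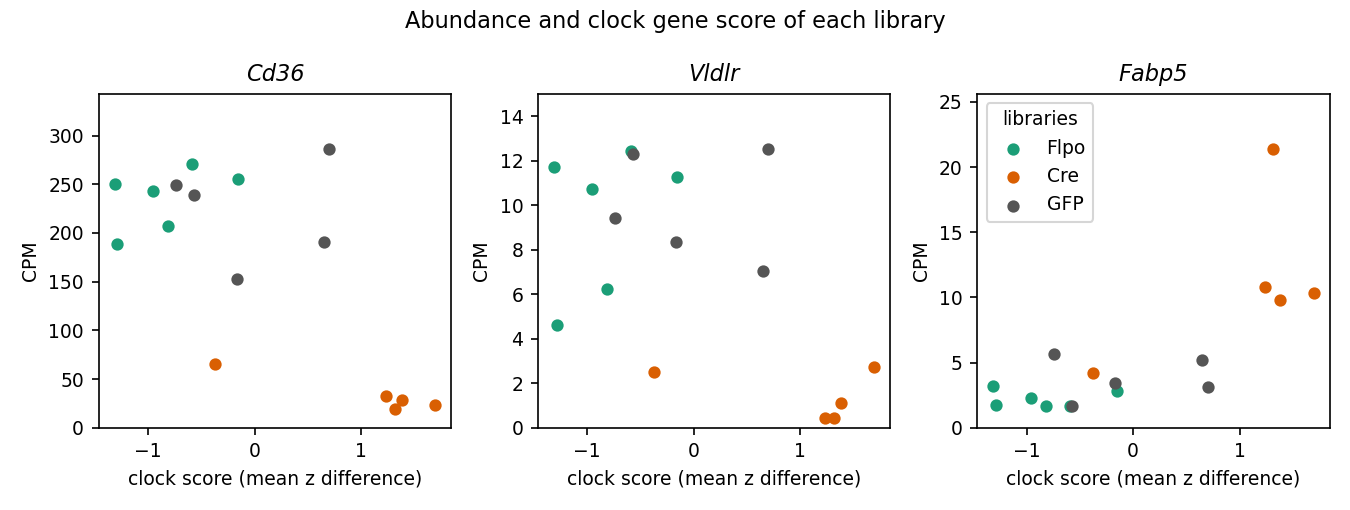
CPM of Cd36, Vldlr and Fabp5 against the clock score of each library, coloured by group. Cre library 4, at a score of -0.372, sits among the GFP scores, with Cd36 at 65.9 and Vldlr at 2.53 CPM, below the GFP points, and Fabp5 at 4.21 CPM, among them.

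Cd36 is known to be sex-biased in rat liver, and genes that differ between male and female mouse livers were measured beside it. Of 20 genes with higher RNA in males, 15 were called higher in Cre than in GFP and none lower, with a median log2 change of 2.04. Of 14 tested genes with higher RNA in females, 6 were lower and none higher, with a median of -1.28. Of all genes tested, 3.97% were higher and 5.58% lower in that comparison, with a median of 0.001. In Flpo against Cre, 14 of the 20 male-biased genes were lower and none higher (median -2.02). Of the 14 female-biased genes, 6 were higher and none lower there (median 2.08). The shares of all genes in Flpo against Cre were 7.45% higher and 6.26% lower. No gene of either list was called in Flpo against GFP. The score over the male-biased genes was -1.08 to 0.265 in Flpo, 0.743 to 1.79 in Cre and -0.731 to -0.245 in GFP. The score over the female-biased genes was -0.100 to 0.867 in Flpo, -1.30 to -0.123 in Cre and -0.129 to 0.928 in GFP, so Cre and GFP overlapped. The sex of the mice is not reported here. The part of either set of genes in the values of Cd36 was not tested.

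Other genes of the same steps came from a list of 30 that cover further SLC27, FABP and acyl-CoA synthetase genes and lipoprotein handling. Of the 25 tested, 2 were higher and 2 lower in Cre than in GFP (3.97% and 5.58% of all genes), with a median log2 change of 0.03. In Flpo against Cre 2 were higher and 2 lower (7.45% and 6.26% of all genes), with a median of -0.15. None passed in Flpo against GFP (median 0.03). The median over all genes was -0.005 in both comparisons with Flpo. Lpl, the lipase that frees fatty acids from lipoproteins, averaged 34.9 ± 17.0 CPM in Cre and 14.7 ± 1.67 in GFP (log2 1.25, SE 0.258, adjusted p = 0.00589). It was lower in Flpo, at 17.4 ± 3.61 CPM, than in Cre (-1.01, SE 0.242, adjusted p = 0.0103), a call lost on log2(TPM + 1) (-0.60, adjusted p = 0.0642).

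Among genes that activate acids to acyl-CoA, Acsl4 was higher in Cre, at 48.6 ± 16.5 CPM, than in GFP, at 28.2 ± 4.95 CPM (log2 0.79, SE 0.179, adjusted p = 0.0104), a call lost on log2(TPM + 1) (0.51, adjusted p = 0.0586). Acss2, which activates acetate, was lower in Cre, at 54.8 ± 10.7 CPM, than in GFP, at 82.2 ± 9.67 CPM (-0.58, SE 0.150, adjusted p = 0.0199, but 0.054 without GFP library 1, 0.0545 without GFP library 2 and 0.0527 without Cre library 2), and higher in Flpo than in Cre (0.60, SE 0.144, adjusted p = 0.00952). Acsl5 was lower in Flpo, at 259 ± 15.4 CPM, than in Cre, at 319.5 ± 39.0 CPM (-0.30, SE 0.0978, adjusted p = 0.0473), a call lost without any 1 of 9 libraries (GFP 5, Cre 2 to 5 and Flpo 1, 2, 4 and 6), with adjusted p of up to 0.107. With the clock score as a covariate, the calls in Cre against GFP were lost for Acsl4 (0.58, adjusted p = 0.167), Lpl (1.001, adjusted p = 0.101) and Acss2 (-0.43, adjusted p = 0.201). With limma on log2(TPM + 1), 7 genes of this list were higher and none lower in Flpo than in Cre, a setting that moves the median of all genes by 0.14.

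Of 21 regulators of fatty acid genes, Pparg was the only one called in Cre against GFP, where 9.55% of all genes were called. Pparg, the nuclear receptor that drives fat storage genes, averaged 7.21 ± 1.28 CPM in Cre and 18.4 ± 3.83 in GFP (log2 -1.35, SE 0.187, adjusted p = 0.000223), and it was higher in Flpo, at 17.8 ± 4.27 CPM, than in Cre (1.30, SE 0.181, adjusted p = 0.000159). Ppara, the receptor that drives fatty acid oxidation genes, averaged 112 ± 21.2 CPM in Flpo, 126 ± 38.0 in Cre and 95.6 ± 14.2 in GFP and was called in no comparison (adjusted p = 0.162 in Cre against GFP). In Flpo against Cre, the receptors Nr1i2 (log2 0.40, adjusted p = 0.0488) and Nr1i3 (0.80, adjusted p = 0.0183) were also higher and the stress factor Atf4 was lower (-0.46, adjusted p = 0.0177). Thus 3 of 21 were higher and 1 lower there, against 7.45% and 6.26% of all genes. Nr1i2 passed in the absence of GFP library 3 or Flpo library 1 and of no other (adjusted p up to 0.13), and Atf4 missed without Cre library 1 (adjusted p = 0.0504), with library totals (-0.33, adjusted p = 0.0796) and on log2(TPM + 1) (-0.23, adjusted p = 0.195). None of the 21 was called in Flpo against GFP, where the median of the list was 0.06. Its median was 0.09 in Cre against GFP, and -0.03 when Flpo was set against Cre.

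A list of genes of fat storage that PPARG controls, with the 9 genes themselves left out, gave more lower than higher calls in Cre. Of 15 tested, 7 were lower and 1 higher in Cre than in GFP (5.58% and 3.97% of all genes), with a median log2 change of -0.25. In Flpo against Cre, 7 were higher and 1 lower (7.45% and 6.26% of all genes), with a median of 0.26. The 1 gene that went against the rest in each was Lpl, which also stands in the list of uptake genes. None was called in Flpo against GFP, where the median was 0.24. The mean of standardised log2 CPM over this list was 0.0806 to 0.475 in Flpo, -0.914 to -0.289 in Cre and -0.00543 to 0.483 in GFP. Plin4, a lipid droplet coat protein, averaged 75.1 ± 12.3 CPM in Flpo, 8.58 ± 2.16 in Cre and 50.7 ± 13.8 in GFP (-2.56 in Cre against GFP, adjusted p = 1.32e-06, and 3.13 in Flpo against Cre, adjusted p = 1.04e-07). Cidea, a droplet fusion protein, averaged 29.0 ± 21.2 CPM in Flpo, 0.508 ± 0.361 in Cre and 9.65 ± 3.38 in GFP (-4.22, adjusted p = 0.00107 but 0.0697 with limma-voom, and 5.81, adjusted p = 6.49e-05). Cfd, which encodes the adipokine adipsin, changed by -2.93 (adjusted p = 0.000136) and 3.45 (adjusted p = 2.3e-05), and Mogat1, an enzyme of triglyceride synthesis, by -2.63 (adjusted p = 0.00069) and 2.92 (adjusted p = 0.000164). Some of these genes are also adipocyte markers, and the sum of 9 adipocyte markers was 23.2 to 59.2 TPM in Flpo, 7.997 to 15.01 in Cre and 19.5 to 37.0 in GFP. Cfd is 1 of the 9 and averaged 31.3 TPM in Flpo, 2.47 in Cre and 21.3 in GFP, so this sum is not a reading separate from Cfd. With Car3, which hepatocytes also express, the sum of all 10 was 2588 to 3922 TPM in Flpo, 108 to 1318 in Cre and 1980.2 to 3642 in GFP. Of the 10 markers, 3 passed the count filter. The defining markers were near 0 in all libraries, at no more than 0.510 TPM of Adipoq and 0.392 TPM of Plin1, and the part of fat cells in these values was not tested.

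Known PPARA targets, again without the 9 genes, had calls in the other direction. Of 24 tested, 7 were higher and none lower in Cre than in GFP (3.97% and 5.58% of all genes), with a median of 0.25. In Flpo against Cre, 7 were lower and none higher (6.26% and 7.45% of all genes), with a median of -0.20. Flpo against GFP had none called and a median of 0.02. A score over this list, the mean of standardised log2 CPM, was -0.911 to 0.372 in Flpo, -1.05 to 1.76 in Cre and -0.839 to 0.344 in GFP. The Cre range thus overlapped both others, and Cre library 1 had the lowest score of all libraries. Ehhadh, an enzyme of peroxisomal oxidation, averaged 481 ± 86.5 CPM in Flpo, 1769.7 ± 997 in Cre and 503 ± 92.2 in GFP (1.82 in Cre against GFP, adjusted p = 0.000676, and -1.88 in Flpo against Cre, adjusted p = 0.000188). Cyp4a31, an omega-hydroxylase of fatty acids, changed by 1.73 (adjusted p = 0.00558) and -2.04 (adjusted p = 0.000864). Hadhb and Hadha, the subunits of the mitochondrial trifunctional protein, were higher in Cre than in GFP (0.41, adjusted p = 0.0213, and 0.37, adjusted p = 0.0348), but the call of Hadhb was lost without GFP library 3 or 5 and that of Hadha without GFP library 1, 2, 3 or 5 or Cre library 2, 4 or 5, with adjusted p of 0.0551 and 0.0841 at the highest. Plin2, which coats lipid droplets, was lower in Flpo than in Cre (-0.98, adjusted p = 0.00168), as was the hormone gene Fgf21 (-2.11, adjusted p = 0.00425). With the clock score as a covariate, of the genes named in these lists only Plin4, Cfd and Cidea kept their calls in Flpo against Cre. Without a call, Mogat1 stood at 3.23 (adjusted p = 0.0966), Ehhadh at -1.79 (0.0966), Cyp4a31 at -2.23 (0.14) and Plin2 at -0.91 (0.273), close to their values without it, and Fgf21 stood at -1.27 (0.54) and Pparg at 0.85 (0.258), smaller than without it. In Cre against GFP that covariate left the calls of Pparg (-1.10, adjusted p = 0.01), Plin4, Cfd, Cidea, Mogat1 (-2.82, 0.0137), Ehhadh (1.76, 0.0117), Cyp4a31 (1.84, 0.0479) and Hadhb (0.50, 0.038). Hadha lost its call there (0.47, adjusted p = 0.056), and 4 fat storage genes and 3 PPARA targets were called. The count of 7 in Cre against GFP was 2 without GFP library 3 or 5, 3 without Cre library 5, 4 without GFP library 1 or Cre library 2, and 2 with library totals. The 7 in Flpo against Cre became 12, of which 1 was higher, without Cre library 1.

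**Figure D5:**
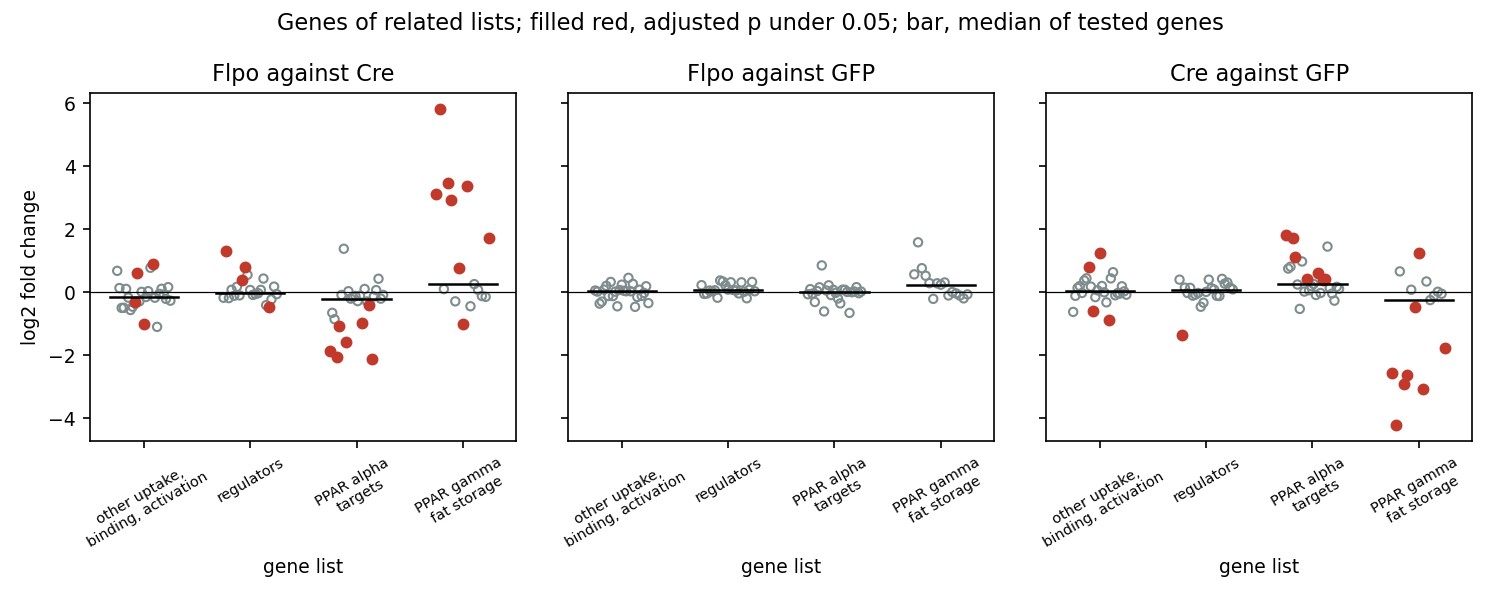
Log2 fold change of the tested genes of 4 related lists in the 3 comparisons, with 1 point per gene and a bar at the median of the list. In Cre against GFP, the median is -0.25 for the PPARG fat storage list and 0.25 for the PPARA target list.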

How the data were processed

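The authors deposited estimated counts and TPM (abundance per gene length and library size) for 16 liver libraries, with no column of another sample. The submitters' processing notes name cutadapt, STAR and mm10, per the labels. The counting program, the annotation behind it and whether strand was used were not given in the sources used here. Not whole were 31.7% of the deposited counts, and in 10835 genes they equalled TPM times 1 factor per gene and 1 per library (largest log2 deviation 1.07e-09), so genes that overlap or resemble each other may share reads.

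After rounding, edgeR 4.0.16 (R 4.3.3) tested the counts: filterByExpr with a minimum count of 10, TMM factors, 1 robust quasi-likelihood fit of all 16 libraries and Benjamini-Hochberg adjustment over 13905 genes at 0.05. The standard error is the log2 fold change over the root of F. CPM values use TMM factors. Because TMM factors were lowest in Cre (0.898 to 0.987), TPM and library totals shift all genes down in Cre, by a median log2 of -0.123 on log2(TPM + 1) against GFP.

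Groups and replicate numbers come from the titles. Gene positions are from GENCODE vM21 (GRCm38) and promoter windows from RefSeq. The 9 genes and the lists were chosen with earlier results of these data known, so a pattern in them is not independent support. Named genes were all 9, Ppara and Pparg, every called gene of the uptake and regulator lists, up to 4 called genes of smallest adjusted p from each other pathway list, and the 3 genes closest in pattern to each called gene. Results for some of these are not reported here. The alternatives were DESeq2-type size factors, library totals, 2 other filters, DESeq2 1.42.0, limma-voom (limma 3.58.1), a fit of the compared pair of groups alone, a block for the replicate number, a clock score as covariate, limma on log2(TPM + 1) with and without the filter and on log2(TPM + 0.1), and each library left out in turn. Running them for genes outside the 9 was decided after seeing the data.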

Additional observations from a re-analysis of the deposited data

Results flagged for a closer look

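Of 27 sets of values, 9 genes in 3 groups, 2 had a library far from the rest of its group, where chance gives about 1 in 20. Slc27a4 stood at 81.8 CPM in Cre library 5, against 46.9 in the next highest Cre library, and the gap was 0.719 of the group's range. Fabp4 stood at 12.2 CPM in Flpo library 6, and the gap was 0.665 of the group's range. Without Flpo library 6, the log2 difference of Fabp4 was 0.11 in Flpo against GFP (adjusted p = 0.926, edgeR) and -0.04 in Flpo against Cre (adjusted p = 0.945).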

How the results depend on the processing

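For the 9 genes in 3 comparisons, 28 alternatives gave 756 values, of which 700 kept direction and side of the threshold, 22 lost the call, 6 gained one and 28 changed sign. The call of Cd36 held in all 28 in Cre against GFP (log2 -3.11 to -2.46, highest adjusted p = 0.000837) and in Flpo against Cre (2.26 to 3.18, highest 0.00774), and that of Vldlr in Cre against GFP (-3.10 to -1.31, highest 0.013). Of all genes tested, 1328 were called in Cre against GFP (552 higher, 776 lower), 834 with only the 2 groups compared, 386 with the clock score, 2104 on log2(TPM + 1) (216 higher, 1888 lower), 2172 on log2(TPM + 0.1) (213 and 1959), 1956 with library totals (300 and 1656), and 960 to 1462 with a library left out. In Flpo against GFP the count of 4 became 72 with DESeq2, 1 with only the 2 groups, 0 with limma-voom, the clock score and log2(TPM + 1) without a filter, and 0 to 15 with a library left out. In Flpo against Cre the count of 1906 (1036 higher, 870 lower) became 57 with the clock score, 2264 with library totals (1810 and 454), 2743 on log2(TPM + 1) (2417 and 326) and 1454 to 2189 with a library left out. Of the 9 genes, 2 to 4 were called in Cre against GFP, DESeq2 called 1 between Flpo and GFP, and for Flpo against Cre the number was 1 with the clock score, 4 with library totals and on TPM, and 5 to 7 with a library left out. The causes were not tested.

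Signs that turned belonged to differences that were not called. In Cre against GFP these were Fabp4 with library totals (-0.012), the clock score (-0.37), log2(TPM + 1) (-0.11) and log2(TPM + 0.1) (-0.12), Fabp1 on TPM (-0.0468 with either pseudocount and without the filter) and Fabp2 with the clock score (0.0077). In Flpo against GFP they were Cd36 (-0.20) and Slc27a5 (-0.019) with the clock score. In Flpo against Cre they were Slc27a4 with library totals (0.036) and on TPM (0.16 and 0.17 with the smaller pseudocount) and Ppara on TPM (0.0573, and 0.0581 with the smaller pseudocount). With a library left out, Cre against GFP ranged from -0.30 to 0.0906 for Slc27a4, -0.17 to 0.0143 for Fabp2 and -0.12 to 0.28 for Fabp4. Flpo against GFP ranged from -0.0319 to 0.18 for Cd36, -0.17 to 0.0745 for Vldlr, -0.15 to 0.0626 for Pparg and -0.0245 to 0.0816 for Slc27a5. Flpo against Cre ranged from -0.22 to 0.17 for Slc27a4, -0.037 to 0.52 for Fabp4 and -0.29 to 0.0248 for Ppara.

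The deviations of same-numbered libraries correlated weakly (r from -0.067 to 0.114, -0.031 to 0.287 and -0.228 to 0.159 for Cre with GFP, Flpo with GFP and Flpo with Cre). For Flpo with GFP, 3 of the 5 were over 0.1. Libraries with different numbers were not set beside them, so these values cannot show whether the numbers mark pairs. The labels do not state that they do, so the numbers were not taken as pairs. With the replicate block, 1019, 0 and 1352 genes were called in those comparisons, of which 2, 0 and 4 were among the 9 genes. The block took away the calls of Fabp5 in Cre against GFP (1.48, adjusted p = 0.0516) and of Slc27a2 (-0.35, adjusted p = 0.0835) and Fabp2 (adjusted p = 0.0544) in Flpo against Cre. Vldlr, Fabp4 and Fabp5 rest on few counts, which limits the precision of their values.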
